A study of Mus musculus with 18 samples.

Results

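The comparison described here is daily ultrasound on collagen-coated PLLA/ZnO membranes. It comprised 6 of the 18 RNA sequencing libraries of the series, 3 from cells given ultrasound (+US PLLA/ZnO@Col) and 3 from cells without it (-US PLLA/ZnO@Col), taken by the group names of their count columns. All libraries are labelled MC3T3-E1, an established pre-osteoblast line from mouse calvaria, and the labels give no genotype difference between groups. Cells had been seeded at 20000 per well on 15 mm discs of sterilised fibre membrane and were harvested after 5 days. PLLA is a biodegradable polyester, ZnO is zinc oxide and Col is collagen, and ultrasound was applied for 10 min on each day. The other 12 libraries, from PLLA and PLLA/ZnO membranes with and without ultrasound, are used only to set the spread between replicates and to show where the collagen membrane differed. The zinc oxide and the collagen coat were shared by both groups. The labels do not say that replicates were separate cultures, so the error behind each p-value is that between the 3 libraries of a group and could be technical.

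Osteoblast precursors attach to collagen through integrins and discoidin receptors, and lay down a matrix of fibrillar collagen, collagen VI, fibronectin and small proteoglycans that later takes up mineral. Piezoelectric polymers and zinc oxide generate surface charge when deformed, and ultrasound is one way of deforming them. Cells sense force and charge through stretch-gated and voltage-gated channels, calcium entry, integrin complexes and the actin cytoskeleton, and immediate early genes such as Egr1 and Fos are among the first to be transcribed after such stimuli. Canonical Wnt, BMP and retinoic acid signals tune the step from precursor to osteoblast.

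The libraries of the collagen membrane differed in ways that the ultrasound label does not give. -US replicates 1 and 3 and +US replicate 1 lacked Y-linked reads, with 1.68, 2.48 and 3.12 CPM (counts scaled to a common library size) from Ddx3y, Eif2s3y, Kdm5d and Uty. -US replicate 2 held 152 and +US replicates 2 and 3 held 41.7 and 46.9. All 12 libraries of the other membranes held such reads (19.2 to 154 CPM). The labels do not say whether the 3 libraries lacking them came from another passage, clone or culture, and the part of such a difference in the fold changes was not tested. Thy1, a surface glycoprotein of mesenchymal cells, divided the libraries in the same way. On the FPKM scale, reads scaled to gene length and library size, it was at 0.115, 4.59 and 4.62 FPKM with ultrasound and 0.0709, 2.55 and 0.128 without. On log2 CPM the first principal component of the 6 libraries (51.1% of the variance) set -US replicate 2 apart from the other 5, and the second (32.2%) set +US replicates 2 and 3 apart from the 3 libraries lacking Y-linked reads. The correlation of log2 CPM was 0.992 between -US replicate 1 and +US replicate 1, and 0.900 between -US replicates 2 and 3. The 3 libraries with Y-linked reads were not alike. -US replicate 2 had correlations of 0.918 and 0.940 with +US replicates 2 and 3, below the 0.957 to 0.965 that -US replicate 1 had with them. +US replicates 2 and 3 had a correlation of 0.992 with each other and of 0.987 and 0.990 with PLLA +US replicate 3, a library with 37.9 CPM of Y-linked reads and 1.87% mitochondrial counts. The mitochondrial share was 1.58% and 1.77% in +US replicates 2 and 3 and 4.54% in -US replicate 2. Library totals were 49944718 to 62419655 counts.

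**Figure D1:**
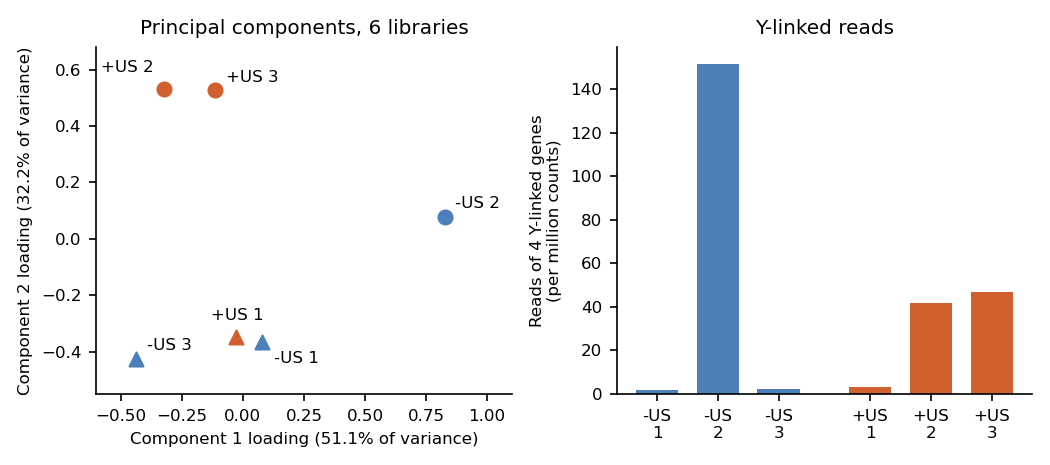
The left panel plots the loadings of the 6 PLLA/ZnO@Col libraries on the first 2 principal components of log2 CPM, and the right panel the summed CPM of 4 Y-linked genes, blue for -US and orange for +US. Triangles on the left mark the libraries lacking Y-linked reads, -US 1, -US 3 and +US 1, which have 1.68 to 3.12 CPM against 41.7 to 152 in the others.

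Since 1 of 3 ultrasound libraries and 2 of 3 control libraries lacked Y-linked reads, a difference between the kinds enters the ultrasound comparison. The kinds are called Y-lacking and Y-holding, by these reads alone, and the list medians and many of the genes are also given within them, as the log2 difference of FPKM + 0.1. In the Y-lacking libraries it sets +US replicate 1 against the mean of -US replicates 1 and 3. In the Y-holding libraries it sets the mean of +US replicates 2 and 3 against -US replicate 2. These splits have too few libraries for a test. In the Y-holding libraries the ultrasound label also separates the 2 libraries of low mitochondrial share from the 1 of high share. These 2 libraries also held fewer Y-linked reads, 41.7 and 46.9 CPM against 152 in -US replicate 2. The part of ultrasound and of each of these differences cannot be told apart.

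Markers of other cells were examined in the same libraries. Of the macrophage and osteoclast markers Ptprc and Adgre1 were near 0 in all 6 libraries (at most 0.0935 and 0.0802 FPKM). Lyz2, which encodes lysozyme, was at 26.8, 6.37 and 5.77 FPKM with ultrasound and 23.3, 5 and 25.6 without, and Csf1r, the receptor for the macrophage growth factor M-CSF, at 1.68, 0.102 and 0.105 FPKM with ultrasound and 1.37, 0.053 and 1.45 without. Both were highest in the 3 Y-lacking libraries, and Itgam and Tyrobp, other myeloid markers, were listed at 0 in the 3 Y-holding libraries. Not all members followed. Ctsk, of the same list, was highest in -US replicate 2, a Y-holding library, and was lower with ultrasound within the Y-holding libraries. All 7 tested markers of that list were lower with ultrasound, none at an unadjusted p under 0.05, and the summed FPKM of its 11 members was 56.3, 28.1 and 24.9 with ultrasound and 50.2, 38 and 59.5 without. For Lyz2 and Csf1r the sign turned within the kinds. Lyz2 differed by 0.14 in the Y-lacking and 0.27 in the Y-holding libraries, and Csf1r by 0.24 and 0.41. Their log2 fold changes over all libraries were -0.47 and -0.62 (adjusted p = 0.759 and 0.833). The part of these markers in the results below was not tested. Endothelial, epithelial and adipocyte markers had no member high enough to test, and their summed FPKM stayed at or below 0.481, 1.01 and 1.11. In bulk RNA, fewer cells of a type and less RNA per cell cannot be told apart.

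On the collagen membrane no gene differed past the threshold between ultrasound and its absence. Of 11936 tested genes, 0 (0%) had an adjusted p under 0.05 by edgeR's quasi-likelihood F-test with Benjamini-Hochberg adjustment, and the smallest adjusted p was 0.525. At an unadjusted p under 0.05 there were 976 genes (8.18%), where 597 would be expected by chance. Of the 976 genes 615 (5.15%) were higher and 361 (3.02%) lower with ultrasound. With the 6 collagen-membrane libraries fitted alone, 513 genes reached that level, fewer than the 597. With 1 of these 6 left out of the full fit, the number ran from 276 (without +US replicate 2) to 2335 (without -US replicate 3). The 3 values of each group did not overlap for 630 genes (5.28%) in the higher direction and 685 (5.74%) in the lower. DESeq2 called 3 genes, all higher: Tnn, Cthrc1 and Cyp26b1. Without +US replicate 1, edgeR called 38 genes (30 higher and 8 lower), and with all 3 libraries lacking Y-linked reads left out it called 111 (70 higher and 41 lower), with 13 called in both. Of the 111 genes 11 had values that did not overlap between the groups over all 6 libraries. Over all tested genes 47.1% had a log2 fold change above 0. That share, and the 5.15% that were higher at an unadjusted p under 0.05, are the background for the counts of the lists. The genes and lists below are described by their values, and every tested gene named has an adjusted p of 0.525 unless another is given.

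The list of collagen VI and basement membrane genes had the highest median of the lists. Collagen VI forms the beaded microfibrils around mesenchymal cells, and laminins, nidogens, collagen IV and perlecan make the sheet-like matrix beneath cells and around vessels. All 15 tested members were higher with ultrasound, and 7 had an unadjusted p under 0.05, against 47.1% and 5.15% of all tested genes. The median log2 fold change of the list was 0.43, beside -0.03 over all tested genes. In 8 members the 3 ultrasound values lay above all 3 control values, as in 5.28% of all tested genes. The median was 0.41 in the Y-lacking libraries and 0.36 in the Y-holding.

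Col6a1 and Col6a2 encode the alpha 1 and alpha 2 chains, which assemble with the alpha 3 chain into the collagen VI monomer. Both genes lie on chromosome 10 and are transcribed in the same direction, with 85161 bases between them. The bases before each start site are printed because the 2 genes had nearly the same log2 fold change. Both are 5′ to 3′ on the minus strand of GRCm38.p6 from RefSeq, and the searched motifs are in capitals.
Col6a1, chr10:76726169-76726294: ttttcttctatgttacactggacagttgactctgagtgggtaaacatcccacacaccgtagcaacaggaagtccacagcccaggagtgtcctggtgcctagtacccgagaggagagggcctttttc
Col6a2, chr10:76623631-76623880: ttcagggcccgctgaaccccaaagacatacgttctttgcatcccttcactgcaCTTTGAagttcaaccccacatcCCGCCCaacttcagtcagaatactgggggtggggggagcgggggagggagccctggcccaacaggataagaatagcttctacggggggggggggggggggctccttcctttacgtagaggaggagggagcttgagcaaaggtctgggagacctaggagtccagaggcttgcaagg
The RefSeq start of Col6a1 lies 124 bases inside the 5′ end given in the authors' table, and only the 126 bases upstream of both are printed. Searched on both strands were GGGCGG, the GC box, TGACTCA, the AP-1 site that Fos proteins bind, and CTTTGA, a core of sites bound by the Wnt effectors TCF and LEF. The Col6a2 window held CTTTGA and, on the opposite strand, GGGCGG, read here as CCGCCC, and the Col6a1 window held none of the 3. Over 32851 RefSeq mouse windows of 250 bases, 32.7%, 4.46% and 13.8% held them, so these matches describe the letters alone. The Col6a1 window, at 126 bases, was shorter than those, so its lack of matches cannot be set beside these shares.

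Col6a1 (chromosome 10, 76708792 to 76726168) was at 199.6, 268 and 292 FPKM in +US replicates 1, 2 and 3 and 149.9, 128 and 153 in -US replicates 1, 2 and 3, and Col6a2 (chromosome 10, 76595762 to 76623630) at 63.8, 88.6 and 95 FPKM with ultrasound and 45.3, 41.4 and 49.1 without. The highest control library was below the lowest ultrasound library for both, and +US replicate 1 was the lowest of its group. Col6a1 was 1.76-fold higher (log2 fold change 0.81, SE 0.21) and Col6a2 1.82-fold higher (log2 fold change 0.86, SE 0.21), short of the threshold. Col6a1 differed by 0.40 in the Y-lacking and 1.12 in the Y-holding libraries, and Col6a2 by 0.44 and 1.15. The sign was the same in both kinds, and the size was smaller in the Y-lacking libraries.

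The other named genes of the list gave smaller differences. Nid2, which encodes the linker protein nidogen 2 (chromosome 14, 19751265 to 19811787), was at 23.8, 27.4 and 33.3 FPKM with ultrasound and 20.5, 15.5 and 15.6 without (log2 fold change 0.71, SE 0.22). The groups did not overlap, and the differences were 0.42 in the Y-lacking and 0.96 in the Y-holding libraries. Hspg2, which encodes the heparan sulfate proteoglycan perlecan, was at 119, 132 and 145 FPKM with ultrasound and 104, 89.8 and 43.6 without (log2 fold change 0.74, SE 0.33). Col6a3 was at 81.7, 108 and 113 FPKM with ultrasound and 79.6, 73.6 and 33.8 without (log2 fold change 0.69, SE 0.31). In Hspg2 and Col6a3 -US replicate 3 was far below the other controls, and without it the log2 fold changes were 0.48 and 0.43. Hspg2 differed by 0.82 in the Y-lacking and 0.63 in the Y-holding libraries, and Col6a3 by 0.66 and 0.59. Col4a2, a collagen IV chain, was at 40.9, 47.7 and 45.3 FPKM with ultrasound and 34.7, 36.3 and 28.4 without, and Lamb2, the laminin beta 2 chain, at 28.4, 25.3 and 24.4 FPKM with ultrasound and 20.5, 15 and 19 without. Neither Col4a2 nor Lamb2 overlapped between the groups, and their log2 fold changes were 0.43 and 0.51.

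Counting genes whose higher group averaged 2 FPKM or more, the 12 higher genes of smallest unadjusted p with values that did not overlap between the groups were Rab3b, Atoh8, Olfml2b, Col6a2, Col6a1, Irf5, Sipa1, Serpina3g, Pitpnm1, Gba2, Scara5 and Pcx. Cthrc1, Cyp26b1 and Axin2, described below, had p-values as small and did not overlap, but lay under that level. Atoh8, a basic helix-loop-helix transcription factor (chromosome 6, 72206177 to 72235577), was at 9.3, 20.0 and 17.6 FPKM with ultrasound and 9.13, 6.38 and 8.62 without (log2 fold change 0.95, SE 0.23). Rab3b, a small GTPase of vesicle exocytosis, was at 4.21, 8.26 and 6.94 FPKM with ultrasound and 3.61, 3.39 and 4 without (log2 fold change 0.81, SE 0.20), and Irf5, an interferon regulatory factor, at 5.64, 9.85 and 9.45 FPKM with ultrasound and 5.3, 4.64 and 5.39 without (log2 fold change 0.70, SE 0.18). In Atoh8, Rab3b and Irf5 +US replicate 1 was just above the highest control, and their difference was near 0 in the Y-lacking libraries (0.07, 0.14 and 0.08) and above 1 in those holding them (1.54, 1.14 and 1.04). Sipa1, a GTPase activator for Rap1 that acts on integrin adhesion, was at 11.8, 13.5 and 12.3 FPKM with ultrasound and 9.32, 7.77 and 9.34 without (log2 fold change 0.50, SE 0.13), with 0.33 in the Y-lacking and 0.72 in the Y-holding libraries. Gba2, a non-lysosomal glucosylceramidase, was at 3.47, 3.36 and 3.51 FPKM with ultrasound and 2.44, 2.76 and 2.25 without (log2 fold change 0.48, SE 0.13). The 3 ultrasound values of Gba2 were nearly equal and its differences were 0.55 in the Y-lacking and 0.31 in the Y-holding libraries. Pcx, the mitochondrial pyruvate carboxylase, was at 36.2, 39.1 and 38.7 FPKM with ultrasound and 23.3, 19.7 and 31.2 without (log2 fold change 0.62, SE 0.17).

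The other 4 genes of that set were a receptor, secreted proteins and a lipid carrier. Scara5, a scavenger receptor for ferritin, was at 10.1, 14.9 and 18.5 FPKM with ultrasound and 7.6, 8.12 and 8.12 without. Olfml2b, a secreted olfactomedin-domain protein, was at 32.7, 44.8 and 44.4 FPKM with ultrasound and 27.8, 24.1 and 26 without, and Pitpnm1, a phosphatidylinositol transfer protein, at 13.9, 17.8 and 17.1 FPKM with ultrasound and 11.3, 12.2 and 10.6 without. All 3 had tight control groups, with log2 fold changes of 0.87, 0.64 and 0.52. Serpina3g, a serine protease inhibitor, was at 8.96, 13.7 and 15.2 FPKM with ultrasound and 6.08, 6.83 and 7.82 without. It belongs to a cluster of near-identical Serpina3 genes whose reads the counting may have divided, and its value is uncertain. In the Y-lacking and Y-holding libraries the differences were 0.36 and 1.02 for Scara5, 0.28 and 0.88 for Olfml2b, 0.35 and 0.51 for Pitpnm1, 0.37 and 1.07 for Serpina3g and 0.42 and 0.98 for Pcx. All were positive.

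The 12 lower genes were Xrcc5, Sarnp, Tmem251, Pinx1, Haus1, Trmt10b, Sat1, Il1rl1, Cmc1, Ly96, Nufip1 and Atp6v1c1. Xrcc5, the Ku80 subunit of the DNA end-joining complex (chromosome 1, 72307427 to 72394952), was at 14.7, 10.7 and 10.5 FPKM with ultrasound and 18, 17.6 and 18.2 without (log2 fold change -0.58, SE 0.15). Its 3 controls were within 1 FPKM of each other and all ultrasound libraries lay below them, with differences of -0.29 in the Y-lacking and -0.73 in the Y-holding libraries. Sarnp, an RNA-binding protein of messenger RNA export, was at 2.78, 2.41 and 3.51 FPKM with ultrasound and 7.12, 13.6 and 13.1 without (log2 fold change -1.94, SE 0.52). It had the largest difference of the 12, and the kinds gave -1.76 in the Y-lacking and -2.18 in the Y-holding libraries. Il1rl1, the interleukin-33 receptor ST2, was at 30.2, 30.8 and 27.9 FPKM with ultrasound and 45.8, 68.6 and 35.5 without (log2 fold change -0.74, SE 0.22), and Ly96, the MD-2 partner of the endotoxin receptor, at 0.842, 0.759 and 0.869 FPKM with ultrasound and 1.9, 3.13 and 1.48 without (log2 fold change -1.37, SE 0.44). -US replicate 2 was the highest library for both.

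The other lower genes were of mixed function. Pinx1, a telomerase inhibitor, was at 3.37, 4.49 and 3.68 FPKM with ultrasound and 5.97, 5.24 and 6.46 without. Sat1, which acetylates spermidine and spermine, was at 9.93, 10.6 and 9.17 FPKM with ultrasound and 10.9, 15.1 and 16.1 without, and Nufip1, a factor of small nucleolar RNP assembly, at 3.34, 3.23 and 3.31 FPKM with ultrasound and 4.46, 4.96 and 4.25 without. Haus1, of the augmin complex of the spindle, was at 1.7, 1.28 and 1.14 FPKM with ultrasound and 1.78, 2.4 and 2.68 without. These 4 had log2 fold changes of -0.61, -0.49, -0.47 and -0.72, and Pinx1 differed by -0.86 in the Y-lacking and -0.36 in the Y-holding libraries. Trmt10b (a transfer RNA methyltransferase), Tmem251, Cmc1 (a cytochrome oxidase assembly factor) and Atp6v1c1 (a subunit of the vacuolar proton pump) had log2 fold changes of -0.76, -0.71, -0.71 and -0.54.

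**Figure D2:**
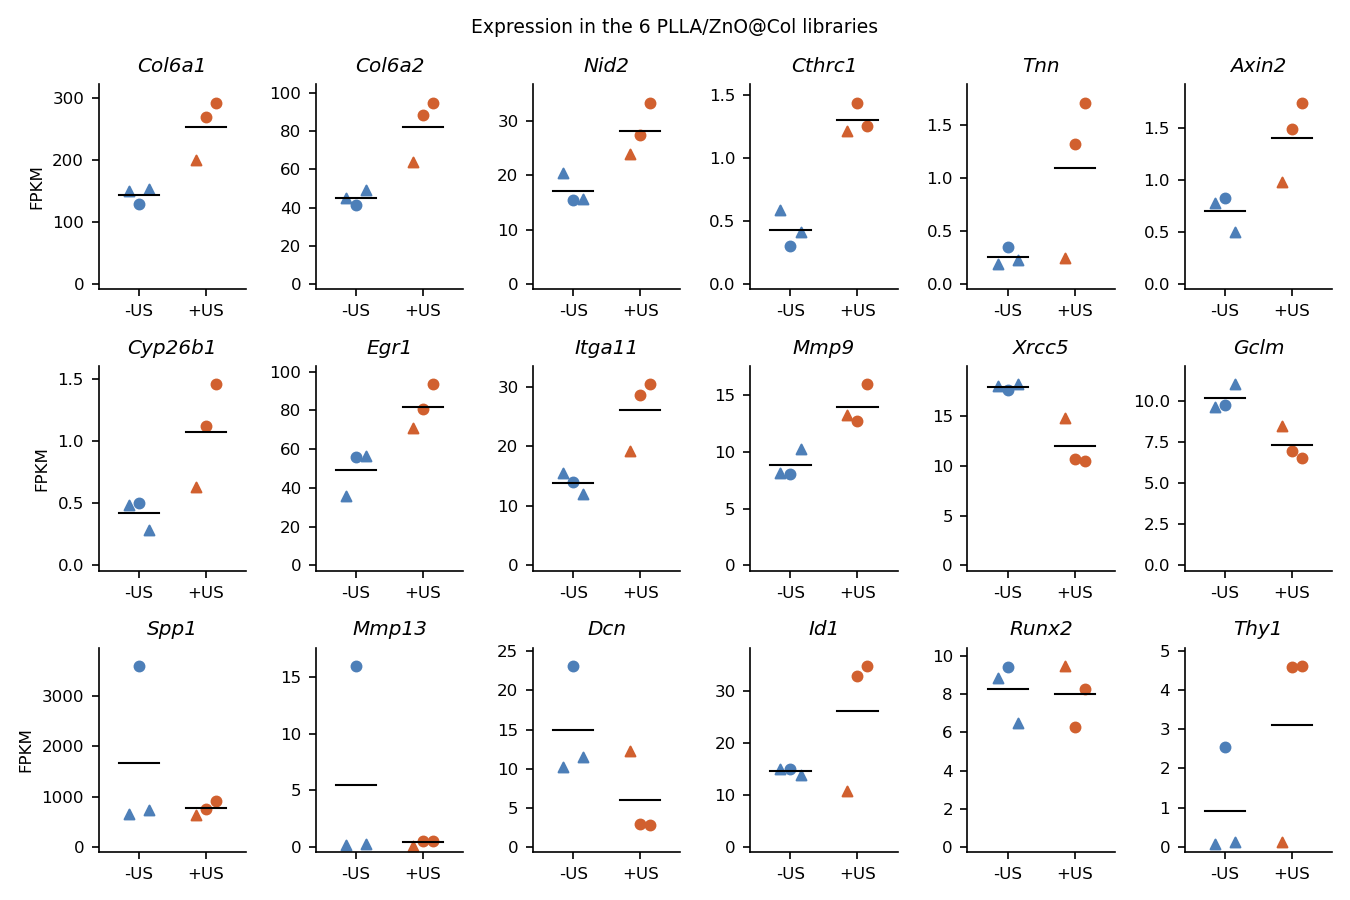
Each panel plots the FPKM of 1 gene in the 6 PLLA/ZnO@Col libraries, with -US on the left in blue, +US on the right in orange, triangles for the libraries lacking Y-linked reads and a line at each group's mean. In Col6a1, Cthrc1 and Xrcc5 the groups do not overlap, in Tnn and Id1 the ultrasound triangle lies with or below the controls, and in Spp1 and Mmp13 1 control circle lies far above all others.

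Fibrillar collagens and their scaffold partners were mostly higher. Of 18 tested members 15 were higher and 3 lower, 5 and 1 of them at an unadjusted p under 0.05 (background 5.15% and 3.02%), with a median log2 fold change of 0.28. The median was 0.33 in the Y-lacking libraries and 0.50 in the Y-holding libraries. Col5a1, which limits the width of collagen fibrils (chromosome 2, 27886425 to 28039514), was at 93.4, 105 and 111 FPKM with ultrasound and 76.7, 70.8 and 68 without (log2 fold change 0.52, SE 0.16), with no overlap and 0.37 in the Y-lacking and 0.60 in the Y-holding libraries. Fbln2, which encodes the elastic-fibre protein fibulin 2, was at 45.3, 63.3 and 63.7 FPKM with ultrasound and 44.1, 40.5 and 36.7 without (log2 fold change 0.50, SE 0.21). Prelp, a leucine-rich proteoglycan that anchors basement membranes to collagen, was at 1.98, 8.81 and 12.3 FPKM with ultrasound and 0.72, 5.24 and 0.847 without (log2 fold change 1.79, SE 0.68), where the 3 libraries lacking Y-linked reads held the 3 lowest values. Dcn, which encodes the collagen-binding proteoglycan decorin, was lower in the fit, at 12.2, 2.89 and 2.76 FPKM with ultrasound and 10.2, 23.2 and 11.5 without (log2 fold change -1.30, SE 0.47). Its differences were 0.17 in the Y-lacking and -2.99 in the Y-holding libraries, so the sign was not shared by the 2 kinds.

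Enzymes that process collagen were higher in 20 of 24 tested members, 5 of them at an unadjusted p under 0.05, against 47.1% and 5.15% of all tested genes. Their median was 0.20, and 0.13 in the Y-lacking and 0.44 in the Y-holding libraries. Cthrc1, a secreted protein that modulates collagen deposition and Wnt signalling (chromosome 15, 39076932 to 39087121), had the smallest p of all tested genes. It was at 1.21, 1.44 and 1.26 FPKM with ultrasound and 0.588, 0.3 and 0.411 without (log2 fold change 1.58, SE 0.32). The groups did not overlap, the kinds gave 1.15 in the Y-lacking and 1.86 in the Y-holding libraries, and all values were low. Adamts2, which removes the amino propeptide of procollagen, was at 2.14, 5.47 and 6.11 FPKM with ultrasound and 1.76, 2.62 and 1.56 without (log2 fold change 1.21, SE 0.32). Loxl4, a lysyl oxidase that crosslinks collagen, was at 11.5, 22.8 and 23.4 FPKM with ultrasound and 12.6, 14.3 and 7.68 without (log2 fold change 0.74, SE 0.26). For Adamts2 and Loxl4 +US replicate 1 fell among the controls.

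Matricellular proteins, secreted proteins that signal from the matrix without building it, were higher in 10 of 16, against 47.1% of all tested genes (median 0.19, with 0.13 in the Y-lacking and 0.28 in the Y-holding libraries). Tnn, which encodes tenascin N of the osteogenic niche of periosteum (chromosome 1, 160085029 to 160153580), was at 0.24, 1.32 and 1.71 FPKM with ultrasound and 0.193, 0.344 and 0.224 without (log2 fold change 2.10, SE 0.49). +US replicate 1 was at the level of the controls, and the differences were 0.14 in the Y-lacking and 1.85 in the Y-holding libraries. Thbs3, a thrombospondin of bone, was at 3.15, 8.56 and 8.74 FPKM with ultrasound and 2.87, 5.49 and 2.86 without (log2 fold change 0.87, SE 0.32), and Tgfbi, an integrin ligand induced by TGF-beta, at 9.83, 14.3 and 14.4 FPKM with ultrasound and 8.19, 10.8 and 9.49 without (log2 fold change 0.44, SE 0.16). The groups overlapped in Thbs3 and in Tgfbi, with +US replicate 1 lowest of its group.

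Proteases and their inhibitors went in both directions, with 16 of 23 higher (background 47.1%, median 0.17, with 0.14 in the Y-lacking and -0.04 in the Y-holding libraries). Mmp9, a gelatinase (chromosome 2, 164940780 to 164955850), was at 13.3, 12.7 and 16 FPKM with ultrasound and 8.19, 8.06 and 10.2 without (log2 fold change 0.67, SE 0.20). Its groups did not overlap, and both kinds gave a positive difference (0.53 in the Y-lacking and 0.82 in the Y-holding libraries). Mmp13, the collagenase of bone remodelling, was at 0.121, 0.501 and 0.567 FPKM with ultrasound and 0.146, 16 and 0.22 without (log2 fold change -3.72, SE 1.21). Only -US replicate 2 was high, and without it the log2 fold change was 1.06.

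Integrins and other collagen receptors were higher in 16 of 24 tested members, 7 of which had an unadjusted p under 0.05, against 47.1% and 5.15% of all tested genes, and 1 was lower at that level. Their median log2 fold change was 0.19, and 0.21 in the Y-lacking and 0.19 in the Y-holding libraries. Itga11, the alpha chain of a receptor for fibrillar collagen on mesenchymal cells (chromosome 9, 62677826 to 62783982), was at 19.2, 28.6 and 30.4 FPKM with ultrasound and 15.4, 14 and 11.9 without (log2 fold change 0.92, SE 0.26). All ultrasound values exceeded all controls, with 0.49 in the Y-lacking and 1.07 in the Y-holding libraries. Itga3, a laminin-binding chain, was at 10.4, 24.1 and 24.6 FPKM with ultrasound and 10.2, 15.5 and 7.72 without (log2 fold change 0.83, SE 0.27), with +US replicate 1 inside the range of the controls. Pdgfrb, a growth factor receptor of mesenchymal cells, was at 29.4, 37.6 and 38.4 FPKM with ultrasound and 25.4, 26.5 and 19.3 without (log2 fold change 0.57, SE 0.18), and the mesenchymal and fibroblast markers to which it belongs were higher in 7 of 10.

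Of the mechanosensitive channels and calcium entry genes 14 of 21 were higher, 5 at an unadjusted p under 0.05 (background 47.1% and 5.15%), and the median was 0.12, with 0.20 in the Y-lacking and 0.16 in the Y-holding libraries. Tmem63a, an ion channel opened by membrane stretch (chromosome 1, 180942344 to 180960841), was at 29.4, 34.1 and 32.5 FPKM with ultrasound and 24.7, 25.2 and 25.3 without (log2 fold change 0.35, SE 0.11). Its 3 controls were nearly equal and all ultrasound values lay above them. Orai2, a pore subunit of store-operated calcium entry, was at 7.1, 11.6 and 10.5 FPKM with ultrasound and 6.6, 8.24 and 6.55 without (log2 fold change 0.45, SE 0.17). Cacna1g, a T-type voltage-gated calcium channel, was at 2.26, 3.86 and 4.37 FPKM with ultrasound and 1.37, 3.18 and 0.775 without (log2 fold change 0.99, SE 0.41). The groups overlapped in Orai2 and in Cacna1g. Downstream of calcium, the calcineurin, CaM kinase and NFAT genes were higher in 8 of 18, with 0 at an unadjusted p under 0.05 and a median of -0.10 (0.04 in the Y-lacking and -0.14 in the Y-holding libraries).

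Immediate early genes were higher in 23 of 28, with 6 higher and 1 lower at an unadjusted p under 0.05 (background 47.1%, 5.15% and 3.02%) and a median log2 fold change of 0.33. Egr1, a zinc finger transcription factor (chromosome 18, 34859823 to 34864984), was at 70.9, 80.7 and 93.5 FPKM with ultrasound and 36.1, 55.7 and 56.2 without (log2 fold change 0.74, SE 0.27). The groups did not overlap, and the difference was nearly equal in the 2 kinds (0.65 in the Y-lacking and 0.64 in the Y-holding libraries). Fos, an AP-1 subunit, was at 8.27, 13.4 and 14.3 FPKM with ultrasound and 1.33, 6.96 and 9.1 without (log2 fold change 1.06, SE 0.60), where -US replicate 1 was far below all other libraries and -US replicate 3 lay above +US replicate 1. Btg2, an antiproliferative gene, was at 7.47, 13.8 and 14.5 FPKM with ultrasound and 5.88, 8.3 and 9.06 without (log2 fold change 0.63, SE 0.22). In the Y-lacking libraries the list's median was 0.11, and in the Y-holding libraries 0.39.

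Srf, the transcription factor that drives both immediate early and actin genes, was at 33.7, 43.9 and 47.3 FPKM with ultrasound and 34.3, 25.7 and 31 without (log2 fold change 0.45, SE 0.16), with 0.05 in the Y-lacking and 0.83 in the Y-holding libraries. Contractile actin genes were higher in 15 of 26, with a median near 0 (0.01) whose sign turned with DESeq2 size factors and which became 0.62 without the 3 Y-lacking libraries. Lmod1, a leiomodin that nucleates actin filaments, was at 7.05, 11.4 and 13.9 FPKM with ultrasound and 6.94, 5.83 and 6.09 without (log2 fold change 0.77, SE 0.22). Actb, the cytoplasmic beta-actin, was at 1939, 2402 and 2245 FPKM with ultrasound and 1881, 1190.3 and 1862 without (log2 fold change 0.41, SE 0.19). In Lmod1 and Actb the Y-lacking libraries gave differences of 0.12 and 0.05, and the others 1.1 and 0.96. Of the YAP and TAZ targets 14 of 23 were higher (background 47.1%). Their median was 0.02, with the sign turned under DESeq2 size factors, and 0.16 in the Y-lacking and 0.16 in the Y-holding libraries. Ccn1, a secreted YAP target, was at 235, 314 and 338 FPKM with ultrasound and 194, 135 and 262 without (log2 fold change 0.58, SE 0.29), and Amotl2, a feedback inhibitor of YAP, at 32.5, 36.6 and 41.5 FPKM with ultrasound and 30.1, 26.6 and 28.4 without (log2 fold change 0.38, SE 0.13). Tead3, a DNA-binding partner of YAP, was at 4.02, 5.05 and 5.49 FPKM with ultrasound and 3.32, 3.47 and 3.54 without (log2 fold change 0.50, SE 0.16). The groups did not overlap in Amotl2 and in Tead3, and overlapped in Ccn1.

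Wnt pathway genes were higher in 20 of 24 tested members, 8 of them at an unadjusted p under 0.05 (background 47.1% and 5.15%) and none lower at that level. The median log2 fold change was 0.32, and it was 0.22 and 0.33 in the Y-lacking and Y-holding libraries. The ligand Wnt10a, which favours osteoblast over fat cell fate, was at 9.71, 17.8 and 16.5 FPKM with ultrasound and 6.44, 10.9 and 10.1 without (log2 fold change 0.69, SE 0.21). The secreted modulator Sfrp2 was at 0.283, 2.38 and 2.36 FPKM with ultrasound and 0.137, 0.806 and 0.246 without (log2 fold change 2.08, SE 0.64), with the 3 lowest values in the Y-lacking libraries. The target gene Axin2, a feedback inhibitor that destabilises beta-catenin (chromosome 11, 108920349 to 108950783), was at 0.986, 1.49 and 1.75 FPKM with ultrasound and 0.778, 0.826 and 0.5 without (log2 fold change 1.0, SE 0.27). For Axin2 alone of these 3 the groups did not overlap, with differences of 0.58 in the Y-lacking and 0.89 in the Y-holding libraries. Wnt10a differed by 0.27 and 0.65, and Sfrp2 by 0.42 and 1.45. Ccnd1, the cyclin D1 gene, was at 193, 263 and 229 FPKM with ultrasound and 193, 187 and 170.1 without (log2 fold change 0.32, SE 0.14).

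In BMP and TGF-beta signalling 20 of 35 tested members were higher, 7 of them at an unadjusted p under 0.05, against 47.1% and 5.15% of all tested genes. The median was 0.09, and 0.17 in the Y-lacking and 0.04 in the Y-holding libraries. The receptor Tgfbr2 was at 26.3, 26.9 and 29.6 FPKM with ultrasound and 22, 20.5 and 18.7 without (log2 fold change 0.44, SE 0.15). The inhibitory Smad6 (chromosome 9, 63953076 to 64022059) was at 3.64, 4.47 and 4.87 FPKM with ultrasound and 3, 2.65 and 2.57 without (log2 fold change 0.66, SE 0.19). Tgfbr2 and Smad6 did not overlap between the groups. Tgfbr2 gave 0.38 in the Y-lacking and 0.46 in the Y-holding libraries, and Smad6 0.38 and 0.79. Id1, a target gene of BMP signals, was at 10.8, 32.9 and 34.9 FPKM with ultrasound and 14.9, 15 and 13.9 without (log2 fold change 0.84, SE 0.29). For Id1 +US replicate 1 was the lowest of the 6 libraries, and the sign differed between the kinds (-0.41 in the Y-lacking and 1.17 in the Y-holding libraries).

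Genes of retinoic acid metabolism and response were higher in 7 of 9 (background 47.1%), with a median of 0.25, and 0.01 in the Y-lacking and 0.45 in the Y-holding libraries. Cyp26b1, which degrades retinoic acid and is induced by it (chromosome 6, 84571414 to 84593908), was at 0.632, 1.12 and 1.46 FPKM with ultrasound and 0.487, 0.5 and 0.283 without (log2 fold change 1.33, SE 0.29). Rxra, the shared partner of retinoic acid and vitamin D receptors, was at 16.4, 24.1 and 21.5 FPKM with ultrasound and 13.7, 16.3 and 11.9 without (log2 fold change 0.57, SE 0.18). Neither overlapped between the groups, and Cyp26b1 gave 0.63 in the Y-lacking and 1.20 in the Y-holding libraries.

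Genes of the osteoblast programme were divided between the directions. Osteoblast transcription factors were higher in 7 of 12 with a median of 0.03 and 0 at an unadjusted p under 0.05, and bone matrix and mineralisation genes in 8 of 14 (median 0.10), beside 47.1% of all tested genes. The medians of the factors were 0.14 in the Y-lacking and 0.09 in the Y-holding libraries, and those of the bone matrix genes 0.07 and -0.18. Runx2, the master factor of the lineage (chromosome 17, 44495987 to 44814797), was at 9.49, 6.26 and 8.29 FPKM with ultrasound and 8.86, 9.44 and 6.49 without (log2 fold change -0.04, SE 0.20, with an adjusted p of 0.944), with the groups interleaved. Col1a1, a chain of type I collagen (chromosome 11, 94936224 to 94953042), was at 1107, 1085 and 1053 FPKM with ultrasound and 906, 500.4 and 909.5 without (log2 fold change 0.48, SE 0.22). The ultrasound libraries were close to each other and above every control, and -US replicate 2 was far below the other controls. Spp1, which encodes osteopontin (chromosome 5, 104435118 to 104441050), was at 637, 759 and 908 FPKM with ultrasound and 658, 3609 and 731 without (log2 fold change -1.08, SE 0.54). Only -US replicate 2 was high, and without that library the log2 fold change was 0.09. Vdr, the vitamin D receptor, was at 7.29, 12.6 and 14.3 FPKM with ultrasound and 7.64, 6.02 and 5.5 without (log2 fold change 0.83, SE 0.23), and Ephb4, a receptor for ephrin B2 in osteoblast and osteoclast contact, at 15.5, 20.4 and 17.6 FPKM with ultrasound and 12.4, 13 and 13.2 without (log2 fold change 0.47, SE 0.14). As to the label of the cells, Sp7, Alpl and Bglap, markers of further osteoblast differentiation, reached at most 0.595, 0.118 and 0.367 FPKM in the 6 libraries, and Ibsp was listed at 0 in all of them. Sp7, Alpl, Bglap and Ibsp were too low to be tested.

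Zinc-handling genes were higher in 8 of 18, beside 47.1% of all tested genes (median -0.07, with 0.11 in the Y-lacking and -0.32 in the Y-holding libraries). At an unadjusted p under 0.05, 1 member was higher and 2 lower (background 5.15% and 3.02%). The groups did not overlap in 3 higher and 0 lower members, beside 5.28% and 5.74% of all tested genes. The metallothioneins Mt1 and Mt2, which bind zinc and are induced by it, were at 177, 84.6 and 90.6 FPKM with ultrasound and 114, 186 and 231 without and at 346, 202 and 221 FPKM with ultrasound and 226, 467 and 511 without. For both genes +US replicate 1 lay inside the control range and +US replicates 2 and 3 lay below all 3 controls. Over all libraries the log2 fold changes were -0.58 for Mt1 and -0.63 for Mt2. The zinc exporter Slc30a1, another gene induced by zinc, was at 1.59, 0.796 and 0.932 FPKM with ultrasound and 1.72, 4.68 and 1.28 without (log2 fold change -1.18, SE 0.42), with -US replicate 2 far above the rest.

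Lists of stress genes had medians near the -0.03 of all tested genes. Of 29 genes of ER stress and the amino acid response 7 were higher, beside 47.1% of all tested genes, and 22 lower (median -0.09). At an unadjusted p under 0.05 only 1 of the 29 was lower, where the background was 3.02%. Hsp90b1, the chaperone GRP94, was at 197, 101 and 127 FPKM with ultrasound and 208, 322 and 209 without (log2 fold change -0.78, SE 0.38). The median of this list was -0.10 in the Y-lacking and 0.21 in the Y-holding libraries, and 0.25 without the 3 Y-lacking libraries, so its sign depended on them. Antioxidant genes were higher in 17 of 32 (median 0.02, with the sign turned under DESeq2 size factors, and -0.10 in the Y-lacking and 0.22 in the Y-holding libraries). Gclm, a subunit of the enzyme that starts glutathione synthesis, was at 8.51, 6.96 and 6.55 FPKM with ultrasound and 9.67, 9.79 and 11 without (log2 fold change -0.47, SE 0.16), lower in every ultrasound library than in every control. Heat shock chaperones had a median of 0.07, with -0.08 in the Y-lacking and 0.48 in the Y-holding libraries and 0.53 without the 3 Y-lacking libraries. Of 16 tested, 10 were higher and 6 lower, 2 and 3 of them at an unadjusted p under 0.05 (background 5.15% and 3.02%). The groups did not overlap in 0 higher and 3 lower members, beside 5.28% and 5.74% of all tested genes. Their log2 fold changes ran from -1.02 to 0.89. Hspa1b, an inducible HSP70 with a near-identical copy in Hspa1a that makes its count uncertain, was at 7.33, 12.5 and 14.4 FPKM with ultrasound and 6.48, 8.3 and 5.59 without (log2 fold change 0.75, SE 0.22).

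Metabolic and proliferation lists had medians near that of all genes over the 6 libraries, and several had other medians within the kinds of library. Nuclear oxidative phosphorylation genes (34 tested) had a median of 0.03, with -0.17 in the Y-lacking and 0.60 in the Y-holding libraries. Without the 3 Y-lacking libraries 33 of the 34 were higher and the median was 0.65, where that of all tested genes was 0.10. The cell cycle (37 tested) had a median of 0.07, with -0.03 and 0.29 in the Y-lacking and Y-holding libraries, and 0.34 without the 3. Glycolysis and hypoxia genes had a median of -0.04 with 28 tested, and 0.07 and 0.27 by kind, and cholesterol and fatty acid synthesis genes 0.00 with 28, and 0.20 and 0.20. Transcripts of the mitochondrial genome were lower in all 13, with none at an unadjusted p under 0.05 and a median of -0.60. They made up 2.27%, 1.58% and 1.77% of counts with ultrasound and 2.16%, 4.54% and 1.83% without. -US replicate 2 was the high library, and the median of the list was 0.19 in the Y-lacking libraries and -1.50 in the Y-holding libraries.

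Genes induced by interferon were higher in 20 of 32 (median 0.09), and cytokines, chemokines and acute-phase genes in 17 of 26 (median 0.13), beside 47.1% of all tested genes. The medians were -0.05 in the Y-lacking and 0.29 in the Y-holding libraries for interferon genes and 0.06 and -0.19 for cytokines. Ccl5, a chemokine for T cells and monocytes, was at 2.23, 28 and 34.2 FPKM with ultrasound and 1.67, 11.8 and 2.18 without (log2 fold change 2.06, SE 0.74), and Bst2, the antiviral tether tetherin, at 3.36, 9.51 and 10.9 FPKM with ultrasound and 3.24, 5.42 and 5.43 without (log2 fold change 0.76, SE 0.32). Ccl5 was low in all 3 Y-lacking libraries, whether ultrasound was given or not, while Bst2 was nearly equal in -US replicates 2 and 3. Cxcl12, a chemokine that holds blood stem cells in bone marrow, was at 27.6, 44.5 and 51.5 FPKM with ultrasound and 29.8, 30.9 and 27.9 without (log2 fold change 0.48, SE 0.17), and +US replicate 1 was below all controls. Bst2 differed by -0.31 in the Y-lacking and 0.90 in the Y-holding libraries, and Cxcl12 by -0.06 and 0.63.

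**Figure D3:**
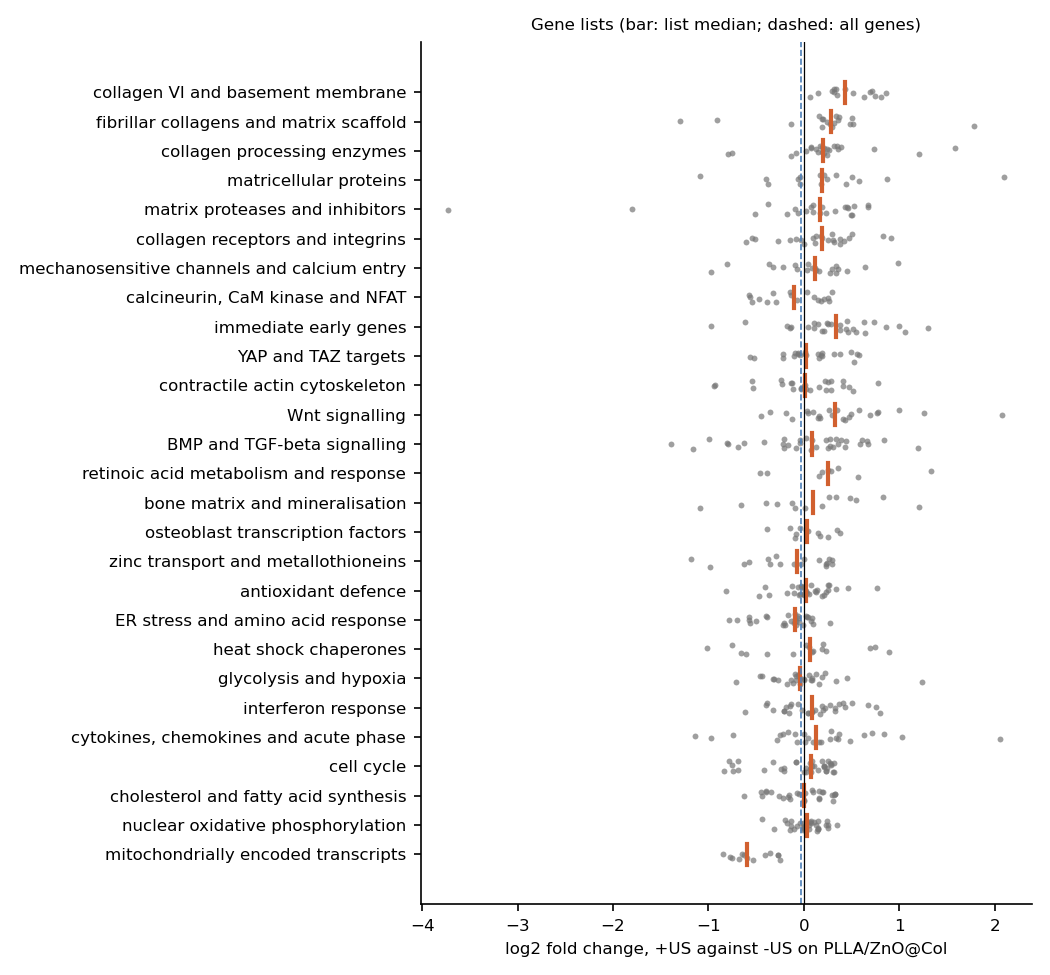
Each grey point is the log2 fold change of 1 tested gene, +US against -US on PLLA/ZnO@Col, with the 27 gene lists as rows, an orange bar at each list's median and a dashed line at the median of all tested genes (-0.03). All 15 points of collagen VI and basement membrane lie above 0, all 13 mitochondrially encoded transcripts lie below 0, and most other lists straddle it.

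Taking the libraries by kind, 3001 of all tested genes (25.1%) were higher with ultrasound within both kinds and 2245 (18.8%) were lower within both. In collagen VI and basement membrane 10 of 15 members were higher within both and 0 lower within both. The counts were 13 and 0 of 18 for fibrillar collagens, 19 and 0 of 24 for collagen processing, and 14 and 2 of 24 for collagen receptors. They were 18 and 2 of 28 for immediate early genes and 15 and 1 of 24 for Wnt signalling. These shares of higher genes exceed the 25.1% of all genes in each of the 6 lists, with no test made of the excess. The differences come from the same libraries as the fold changes of the lists. The lists were chosen with earlier results of these data known, so the shares are no separate support for those fold changes. Such an excess was not particular to these 6 lists. The counts were 16 and 1 of 28 for cholesterol and fatty acid synthesis and 12 and 2 of 23 for YAP and TAZ targets. They were 6 and 0 of 12 for osteoblast transcription factors and 9 and 1 of 16 for matricellular proteins. Cytokines, chemokines and acute-phase genes gave 6 and 8 of 26, and antioxidant genes 7 and 7 of 32.

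**Figure D4:**
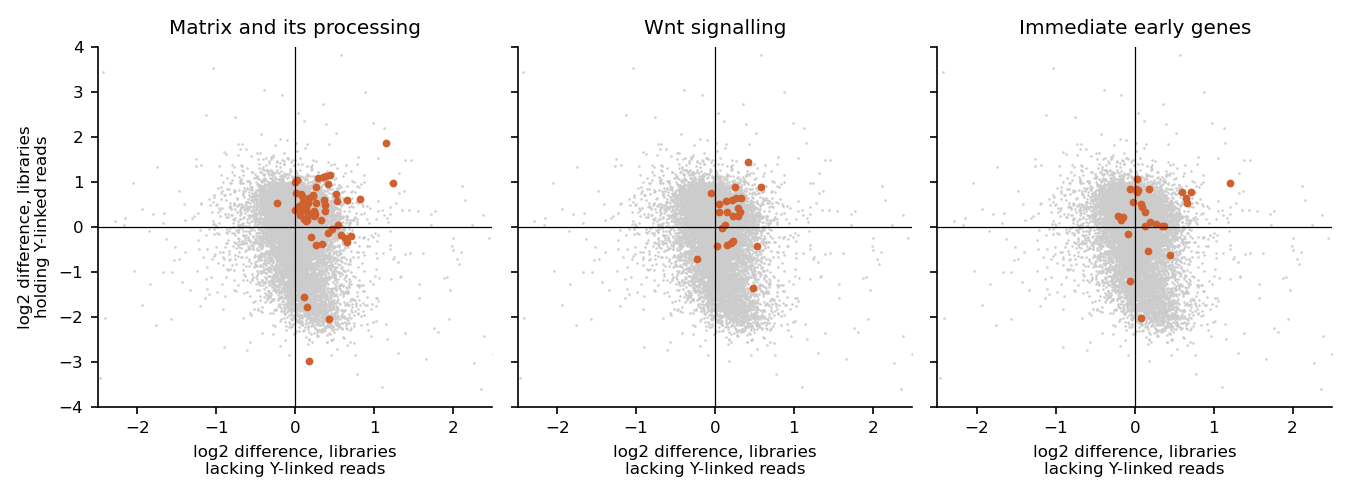
Each panel plots every tested gene in grey and the members of 1 set in orange, with the log2 difference of FPKM + 0.1 between +US and -US in the Y-lacking libraries on the horizontal axis and in the Y-holding libraries on the vertical axis. Matrix and processing genes (collagen VI, fibrillar and processing lists), Wnt genes and immediate early genes lie mostly in the upper right quadrant, where both differences are above 0, and 23 genes fall outside the axes.

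Whether ultrasound acted differently on the collagen membrane was tested by the difference between its ultrasound contrast and the mean of those on PLLA and PLLA/ZnO. No gene passed: 0 of 11936 (0%) had an adjusted p under 0.05 by edgeR, the smallest adjusted p was 0.9997, and 284 genes (2.38%) had an unadjusted p under 0.05. DESeq2 called 0 genes as well. Without +US replicate 1 edgeR called Tnn as higher and Rragd as lower on the collagen membrane, and with all 3 libraries lacking Y-linked reads left out it called 26 genes (15 higher and 11 lower). Rragd, a GTPase of amino acid sensing by mTORC1, was at 1.43, 0.143 and 0.193 FPKM with ultrasound and 1.01, 0.891 and 1.12 without (log2 fold change -0.75, SE 0.59, with an adjusted p of 0.556 for ultrasound on the collagen membrane). Only +US replicates 2 and 3 were low.

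Side by side, Col6a1, Col6a2, Axin2 and Cthrc1 had log2 fold changes nearer 0 on the other membranes. Col6a1 was at 0.81 on the collagen membrane, 0.19 on PLLA and 0.05 on PLLA/ZnO, and Col6a2 at 0.86, 0.24 and 0.13. Axin2 was at 1.0, -0.16 and -0.01, and Cthrc1 at 1.58, 0.00 and 0.34. Egr1 had a positive value on all 3 membranes, at 0.74, 0.36 and 0.38. The adjusted p of the difference between membranes was 0.9997 for each of Col6a1, Col6a2, Axin2, Cthrc1 and Egr1. The genes were named by their values on the collagen membrane, so the values set side by side are a description. By list, the medians on the collagen membrane, PLLA and PLLA/ZnO were 0.43, 0.12 and 0.03 for collagen VI and basement membrane. They were 0.32, 0.04 and -0.09 for Wnt signalling and 0.33, 0.15 and 0.12 for immediate early genes.

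The position of the collagen-membrane libraries among the other 12 showed on which side the differences lay. For 8 of the 12 higher genes named above (Rab3b, Atoh8, Olfml2b, Irf5, Serpina3g, Scara5, Col6a2 and Col6a1) all 3 libraries without ultrasound lay below the lowest library of the other membranes. For 1 of the 12, Sipa1, all 3 libraries with ultrasound lay above the highest. In Rab3b, Atoh8, Irf5, Serpina3g and Scara5 +US replicate 1, a Y-lacking library, also lay below the lowest library of the other membranes. Of the 8 genes, only Col6a2 and Col6a1 had all 3 ultrasound libraries inside the range of the other membranes. Col6a1 ranged from 175 to 326 FPKM on the other membranes, so that 199.6, 268 and 292 with ultrasound were inside that range and 149.9, 128 and 153 without were below it. Among all 630 genes with higher values that did not overlap, 42 had the controls below that range and 113 had the ultrasound libraries above it. Of the 12 lower genes, Xrcc5 had all 3 controls above the range of the other membranes (11.9 to 15.7 FPKM), and Cmc1 and Nufip1 had all 3 ultrasound libraries below it.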

How the data were processed

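Per the labels, the libraries were made from polyadenylated RNA by Illumina protocols. The submitters' processing notes name cutadapt 1.9, FastQC and GRCm38. Not given in the sources used here: aligner, counter, strand and the handling of shared reads. In 1 table the authors deposited whole-number counts and FPKM values (reads scaled to gene length and library size) per gene, named so per the file headers. The ratio of count to FPKM, after library total, varied by 1.43% (median coefficient of variation over libraries).

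Of 30452 genes, 11936 reached an FPKM of 1 in at least 3 of 18 libraries. Their counts were normalised by TMM and tested, two-sided, with the quasi-likelihood F-test of edgeR 4.0.16 in R 4.3.3. All libraries entered 1 fit with a mean per group, 12 residual degrees of freedom and a common biological coefficient of variation of 0.28. The threshold was an adjusted p (Benjamini-Hochberg) under 0.05. No library was left out of that fit, and no pair agreed within sampling noise (lowest chi-square per degree of freedom 12.2). On simulated counts for +US against -US on PLLA/ZnO@Col over 11936 genes, genes given a fold of 1.5, 2, 3 or 4 were recovered in 3, 25, 32 and 41 of 50 cases, and 3 calls were false. The simulated libraries were drawn with a spread estimated over all groups and without Y-lacking and Y-holding kinds. They do not show the recovery where a group mixes such kinds.

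Members and gene lists were chosen with earlier results of these data known. Named genes were the 12 higher and 12 lower genes of smallest p with non-overlapping groups, a group mean of 2 FPKM or more on the higher side and no predicted-gene name, the 3 members of each list with the smallest p (some omitted for length), a panel of bone, zinc, matrix and signalling genes, and genes called by an alternative with 5 or fewer calls. Hspg2, Col4a2, Lamb2, Fbln2 and the macrophage markers other than Lyz2 were added after their values were seen. A symbol on more than 1 gene identifier is represented in lists by the identifier with more counts. Alternatives were DESeq2 1.42.0 and its size factors, limma 3.58.1 on log2(FPKM + 1) and log2(FPKM + 0.1), other filters, a replicate block, the lack of Y-linked reads as a covariate, libraries left out and, chosen after seeing the data, differences within each kind of library.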

Additional observations from a re-analysis of the deposited data

How the results depend on the processing

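Between cells with and without ultrasound on the collagen membrane, 0 genes were called with DESeq2 size factors, without mitochondrial genes, with limma at either pseudocount, with either other filter, with the covariate and with the 6 libraries alone. DESeq2 called 3, and the fit without the 3 libraries lacking Y-linked reads called 111, where the 1 remaining -US library is assumed to vary like the other groups. Leaving out 1 library at a time gave 0 to 38 calls, and only the fit without +US replicate 1 gave any. Of those 38 genes 34, and of the 111 genes 36, had an unadjusted p under 0.05 with all libraries. For the difference between membranes the counts were 26 without the 3 libraries and 0 to 2 with each library left out, the 2 again without +US replicate 1, and 0 otherwise. The cause of these changes was not tested.

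The labels number the replicates alike in all groups. With the replicate number as a block edgeR called 0 genes in both comparisons. Same-numbered collagen-membrane libraries had correlations of their deviations from the group means of 0.29, -0.19 and -0.29 for replicates 1, 2 and 3. The sign was not shared, and deviations within groups of 3 that mix the kinds cannot decide whether the numbers pair the samples.

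Of 85 genes named with values, 79 kept their direction in every one of 17 fits, and 33 values passed the threshold in an alternative, all under DESeq2, without +US replicate 1 or without the 3 libraries. The others changed sign when 1 library was left out or with the 3 libraries treated apart. Many of the 85 genes were named for small p-values in these same libraries, so the 79 are no separate support. The differences within the kinds were not among the 17 fits, and there Dcn, Id1, Bst2 and Cxcl12, among others, had opposite signs. Over the fits leaving out 1 library, the log2 fold change ranged over -4.29 to 1.06 for Mmp13, -1.45 to 0.094 for Spp1, -0.16 to 0.13 for Runx2 and -0.055 to 0.33 for Piezo1, and the positive values of Mmp13 and Spp1 came without -US replicate 2. Without the 3 libraries Piezo1 was at -0.065, Lyz2 at 0.32 and Csf1r at 0.93, and with the covariate Lyz2 was at 0.23 and Csf1r at 0.54. The cause was not tested. List medians within 0.1 of 0, and those of bone matrix, cytokine, matricellular, protease, calcineurin and mitochondrially encoded genes and of the macrophage, osteocyte and chondrocyte markers, changed sign under at least 1 setting. The spread between 3 libraries limits precision.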

Other observations

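Signals from osteoblasts to osteoclasts and the IGF axis formed a list with 9 of 16 tested members higher with ultrasound on the collagen membrane, 2 of them at an unadjusted p under 0.05, against 47.1% and 5.15% of all tested genes, and a median log2 fold change of 0.07, with 0.12 in the Y-lacking and -0.05 in the Y-holding libraries. Csf1, which encodes the macrophage growth factor M-CSF, was abundant, at 229, 285 and 280.5 FPKM with ultrasound and 236, 222 and 195 without (log2 fold change 0.28, SE 0.13). The 3 Y-lacking libraries lay between 195 and 236 FPKM, and +US replicates 2 and 3 were the highest. Piezo1, a stretch-gated cation channel, was at 51.5, 42.1 and 38.7 FPKM with ultrasound and 49.5, 43.5 and 28.2 without (log2 fold change 0.13, SE 0.21 with an adjusted p of 0.799 by edgeR). The groups overlapped, and the values fell on different sides of 0 by kind, at 0.46 in the Y-lacking and -0.11 in the Y-holding libraries. Osteocyte markers had 3 tested members, of which 1 was higher (median -0.15), and chondrocyte markers had 1 tested member, at 0.15.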
